A study of Mus musculus with 29 samples.

Results

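Chromatin accessibility in embryonic cortex was compared between all Myt1l mutants, taken as 1 group of 11 libraries, and 6 wild-type (WT) libraries. The 17 libraries are those of E14.5 cortex among the 29 ATAC-seq libraries of the series, the other 12 being from adult prefrontal cortex and not analysed here. Members were chosen by the genotype in the sample titles. The mutant group held 5 Het libraries (1 mutant allele of a Myt1l knockout mouse line) and 6 Hom libraries (both alleles mutant), and no further treatment is labelled. Litter 1 gave 4 WT and 7 mutant libraries (3 Het, 4 Hom), and litter 2 gave 2 WT and 4 mutant libraries (2 Het, 2 Hom). In the sources used here, strain, embryo sex and the kind of mutation were not given. The titles number the libraries without saying that each is a separate embryo, so the p-values cover only the spread from library to library, which may be technical.

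Myt1l is a zinc finger transcription factor made almost entirely in neurons. It is known for repressing genes of other cell fates while neurons differentiate, and human carriers of loss-of-function variants have a neurodevelopmental syndrome. At this embryonic age the cortex holds dividing progenitors next to newborn neurons, and only the latter make much Myt1l. In ATAC-seq a transposase cuts and tags chromatin where it can reach the DNA, and the number of tagged fragments over a region serves as its accessibility. The tissue was measured in bulk, so a change in accessibility per cell and a change in the share of a cell type cannot be told apart. Pooling the 2 genotypes compares the mean of all mutant libraries with WT, and does not require that both genotypes differ.

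Accessibility was given as CPM, the scaled reads of a region, for regions that are numbered and not paired with genes, coordinates or sequence. Every library had the same upper quartile, 4.61 CPM, while the summed CPM ran from 988155 (Het replicate 34) to 1045790 (WT replicate 10). Of 205908 regions, the 138760 whose mean over the 17 libraries reached 1 CPM were tested. Because no gene names can be attached, at most 2 regions per direction are named for the comparison by their identifiers, and no cell type marker could be read. For the same reason Myt1l itself gives no check on the genotypes as labelled.

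One set of regions set single libraries apart before any comparison. The 20 tested regions with the largest spread within genotypes held 9 that switched together and were numbered from 235788 to 235808, and 6 that ran opposite to them (correlation beyond 0.9 in size with the most variable region, over 17 libraries). The geometric mean of the 9 was 3.76 CPM in WT replicate 10, 11.7 CPM in Het replicate 49, 11.5 CPM in Hom replicate 20 and 6.54 CPM in Hom replicate 65. It was 1.14 CPM in Het replicate 34, 0.818 CPM in Hom replicate 40 and 0.101 to 0.25 CPM in the other libraries. Thus 1 of 6 WT and 3 of 11 mutant libraries lay above 3 CPM. Embryo sex is not labelled, so whether the set follows it was not tested. None of the 20 regions was called between mutants and WT (0 called, limma), but they were picked for a large spread, which makes a call unlikely. The 9 had differences of 0.79 to 1.90 log2 between mutants and WT, with SEs of 0.66 to 0.92 log2. The 6 opposite ones had differences of -0.52 to -0.29 log2. The set is therefore not shown to be balanced between the groups. With the first principal component of these 20 regions as a covariate, 1 region was called in the comparison below.

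Mutant libraries differed from WT at 96 regions, 0.0692% of those tested, of which 46 (0.0332%) rose and 50 (0.036%) fell (limma, Benjamini-Hochberg adjusted p under 0.05). The changes were small. Their median size was 0.30 log2, 28 exceeded 0.5 log2 and 0 exceeded 1 log2, against a median size of 0.09 log2 over all tested regions. Of the 28 larger ones, 25 were rises. In none of the 96 did any library sit at the table's lowest value. The calls sat close to the threshold: 88 of the 96 had an adjusted p between 0.04 and 0.05, the smallest was 0.0224, and the first region not called had 0.0506. At an unadjusted p under 0.05 there were 17297 regions (12.5%), 7566 higher (5.45%) and 9731 lower (7.01%).

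The count was not stable. With litter as a block, each litter holding all 3 genotypes, 9 regions were called, 5 higher and 4 lower, all among the 96 (limma). The deposited values held almost no variation in 3 directions. They were taken as removed by the authors' adjustment for unwanted variation, and a fit to the values does not count them. Entering these in the fit left 9 calls (0.00649%), of which 7 were rises (0.00504%), 2 were falls (0.00144%) and 8 were among the 96, with 8.58% at an unadjusted p under 0.05. The fold changes of the 46 rises kept a median of 0.51 log2 in that fit while their median SE went from 0.10 to 0.12, and the median of the 50 falls stayed at -0.25 log2 with an SE of 0.05 and then 0.06. Litter 1 alone called 0 regions (limma, 9.48% at an unadjusted p under 0.05), and litter 2 alone called 25, of which 24 were higher, 1 was lower and 5 were among the 96 (6.51% at an unadjusted p under 0.05). How many of the 25 share 1 run of region numbers was not counted, so they are not taken as separate changes. Some regions went opposite ways in the litters: all_e14_peak_235822, described below, differed by 4.18 log2 (SE 0.20) in litter 2 and by -1.80 log2 (SE 0.47) in litter 1.

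Single libraries also decided the count. Leaving out Het replicate 49 or WT replicate 43 left 0 calls, with 11.5% and 11.3% of regions at an unadjusted limma p under 0.05. The smallest limma adjusted p was 0.0549 and 0.0515 in these fits, close to the threshold. Without Het replicate 31 or WT replicate 25 there was 1 call, without WT replicate 10 or 46 there were 3, without Het replicate 64 there were 6, without WT replicate 13 there were 7 and without Het replicate 34 there were 9. The count was 34 without Het replicate 27, 30 without WT replicate 57, 29 without Hom replicate 6 and 55 without Hom replicate 20, and it went up to 147 without Hom replicate 54. Without Hom replicate 40, 61 or 65 it moved less, to 75, 64 and 95.

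**Figure D1:**
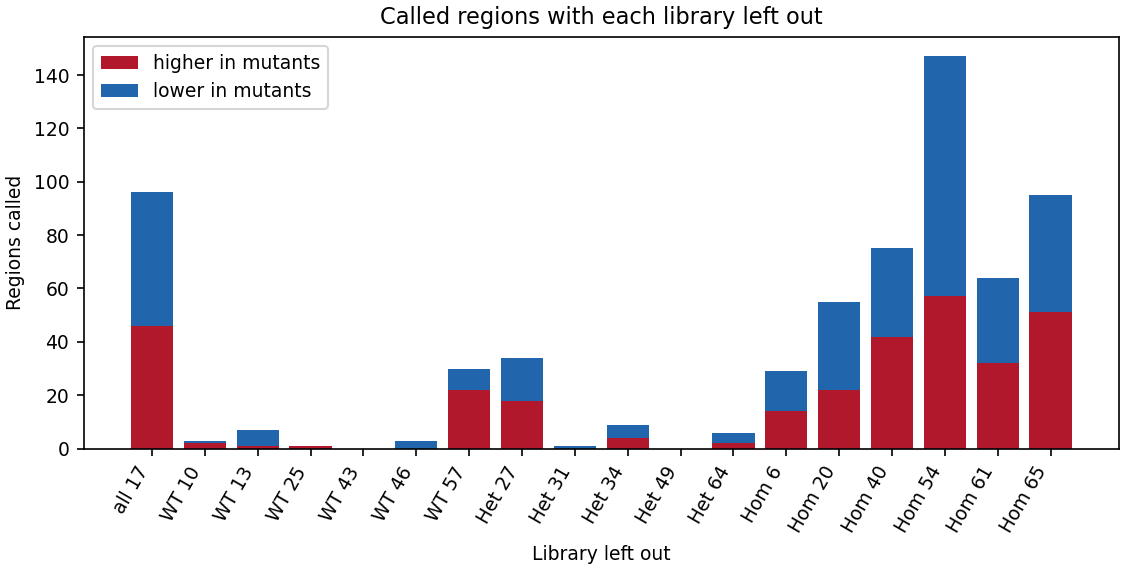
Regions called between mutants and WT (limma, adjusted p under 0.05) with all 17 libraries and with each library left out in turn, split into higher (red) and lower (blue) in mutants. The bars run from 0 without WT 43 or Het 49 to 147 without Hom 54, against 96 with all libraries.

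The regions that rose and those that fell lay at different levels of accessibility. The 50 that fell had a median level of 19.8 CPM, and 45 of them were in the top 2 deciles of level, with 32 in the highest decile alone. The 46 that rose had a median level of 4.13 CPM, and 19 lay in the lower 5 deciles, where 1 region fell. Of the 46 rises 5, all in deciles 1 and 2, had a WT mean under 1 CPM and were tested only because the mutants were high. Of the 50 falls 0 had a mutant mean under it, so the number of rises at low level depends in part on the filter. The median level over all tested regions was 3.08 CPM. Precision also changed with level, the median SE being 0.19 log2 in the lowest decile and 0.05 log2 in the highest, and the sizes called followed it: the smallest called fall was -0.17 log2 and the smallest called rise 0.18 log2, both at high level, while the largest called rise was 0.96 log2.

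**Figure D2:**
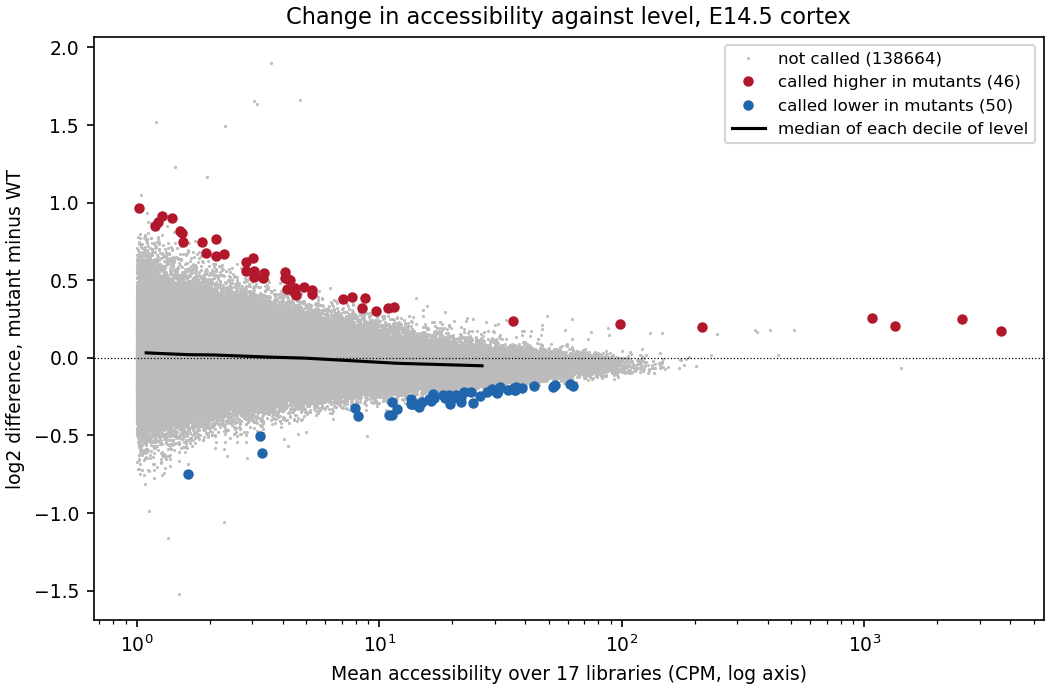
Difference between the mutant and WT means (log2) against mean accessibility (CPM, log axis) for 138760 regions, with the 46 called higher in red, the 50 called lower in blue and the median of each decile of level as a line. The line goes from 0.03 log2 in the lowest decile to -0.05 in the highest, and 45 of the 50 blue points lie in the top 2 deciles.

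Among the rises, the region all_e14_peak_75237 changed most of those with a mean of at least 4 CPM. It measured 2.58 CPM in the lowest, 3.11 in the median and 3.71 in the highest WT library. The 5 Het libraries measured 3.70, 4.36, 4.46, 4.51 and 5.67 CPM, and the 6 Hom libraries ran from 3.65 to 5.57 CPM with a median of 4.54. WT replicate 57, at 3.71 CPM, was the only WT library to reach the mutant range, whose lowest members were Hom replicate 61 and Het replicate 64. The means were 3.13 ± 0.380 CPM (SD, n = 6) in WT and 4.61 ± 0.661 CPM (n = 11) in mutants, a rise of 0.56 log2 (SE 0.10, 95% interval 0.35 to 0.76, limma adjusted p = 0.0357). Het and Hom means were 4.54 and 4.67 CPM, a difference of 0.04 log2 (SE 0.12). The rise was 0.45 log2 in litter 1 and 0.76 log2 in litter 2. With the 3 removed directions as covariates it was not called (limma adjusted p = 0.075), and over all alternatives the adjusted p ran from 0.0161 to 0.30.

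The most accessible region of the whole table, all_e14_peak_129882, was also called higher. WT libraries measured 3104 CPM at the lowest, 3352 at the median and 3725 at the highest. Het libraries measured 3826, 3869, 4159, 4214 and 4267 CPM, all above every WT library. Hom libraries ran from 3221 to 3858 CPM with a median of 3661, and 4 of the 6 lay within the WT range. The mean went from 3364 ± 231 CPM (SD, n = 6) to 3807 ± 334 CPM (n = 11), a rise of 0.18 log2 (SE 0.04, 95% interval 0.10 to 0.25, limma adjusted p = 0.046). Hom was lower than Het here by 0.18 log2 (log2 difference -0.18, SE 0.04, limma adjusted p = 0.0487). The rise was 0.13 log2 in litter 1 and 0.26 log2 in litter 2, and with litter as a block it was not called (limma adjusted p = 0.0605). With the removed directions as covariates it stayed called (limma adjusted p = 0.0144), but with a robust variance estimate it did not (limma adjusted p = 0.244), and the range over all alternatives was 0.00128 to 1. That highest value came with quantile normalization, which sets the first-ranked region of every library to 1 value, so the difference there was 0.

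This region belonged to a small group with very high CPM. The regions have no coordinates, so what gives such levels was not tested. Among the 144 regions above 100 CPM, 5 were called higher and 0 lower, although only 26 of the 144 had a higher mean in mutants and the median difference of all 144 was -0.04 log2. The 5 had means of 215, 1081, 1340, 2542 and 3650 CPM, and with a sixth at 98.2 CPM their rises ran from 0.18 to 0.25 log2. In each of the 5, Het replicate 64 was the highest library and WT replicate 13 the lowest. Those at 215 and 3650 CPM have consecutive numbers, 129881 and 129882. The 5 are therefore not counted as independent changes. In each of the 5 the Het mean was the highest: the region at 2542 CPM had means of 2258 ± 151 CPM in WT, 2939 ± 204 CPM in Het and 2495 ± 173 CPM in Hom (SD). The 7 rises called with the removed directions in the fit had means from 98.2 to 3650 CPM. Of the 96 regions, 5 also differed between Hom and Het (limma adjusted p under 0.05; 29 of all tested regions, 0.0209%, did, 11 or 0.00793% higher in Hom and 18 or 0.013% lower). All 5 were the rises above 100 CPM, where Hom lay below Het.

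The largest of the called rises lay at the other end of the scale, in a region with a mean of 1.03 CPM. Its WT mean of 0.654 CPM was under the filter of 1 CPM, so it was tested only because the mutants were high, and its values are given as a description. WT libraries ran from 0.301 to 0.802 CPM with a median of 0.706, and mutants from 0.903 to 1.60 CPM with a median of 1.22. The difference was 0.96 log2, with 0.93 log2 in Het and 0.99 log2 in Hom. Of the 46 rises 5 had a WT mean under the filter, and of the 50 falls 0 had a mutant mean under it.

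Among the falls, the region all_e14_peak_4934 changed most of those with a mean of at least 4 CPM. WT libraries measured 8.22 CPM at the lowest, 9.35 at the median and 11.7 at the highest. The Het libraries measured 6.33, 6.79, 6.79, 7.45 and 7.67 CPM, and the Hom libraries ran from 6.38 to 8.32 CPM with a median of 7.84. All 5 Het libraries lay below every WT library, and Hom replicate 65, at 8.32 CPM, was the only mutant above WT replicate 13. The mean went from 9.57 ± 1.30 CPM (SD, n = 6) to 7.37 ± 0.688 CPM (n = 11), a log2 difference of -0.37 (SE 0.08, 95% interval -0.53 to -0.22, limma adjusted p = 0.0456). It was -0.48 log2 in litter 1 and -0.16 log2 in litter 2, where the SE was 0.14, and with litter as a block it was not called (limma adjusted p = 0.0605). With the removed directions as covariates it was not called (limma adjusted p = 0.142; 0.0231 to 0.891 over all alternatives).

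The most accessible region called lower, all_e14_peak_90820, with a mean of 62.8 CPM, changed less. WT libraries ran from 65.2 to 72.4 CPM with a median of 67.7. The Het libraries measured 57.2, 59.2, 60.7, 63.3 and 64.5 CPM, and the Hom libraries ran from 55.3 to 67.6 CPM with a median of 57.3. Hom replicate 54 alone, at 67.6 CPM, lay within the WT range, and the other 10 mutant libraries lay below it. The mean went from 68.0 ± 2.63 CPM (SD, n = 6) to 59.9 ± 3.84 CPM (n = 11), a log2 difference of -0.18 (SE 0.04, 95% interval -0.26 to -0.10, limma adjusted p = 0.0456). It was not called with litter as a block (limma adjusted p = 0.0605) or with the removed directions in the fit (limma adjusted p = 0.15). Nor was it once the trend of each library with level had been taken out, where the difference was -0.11 log2 (limma adjusted p = 0.185). Over all alternatives the adjusted p ran from 0.0218 to 0.847.

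**Figure D3:**
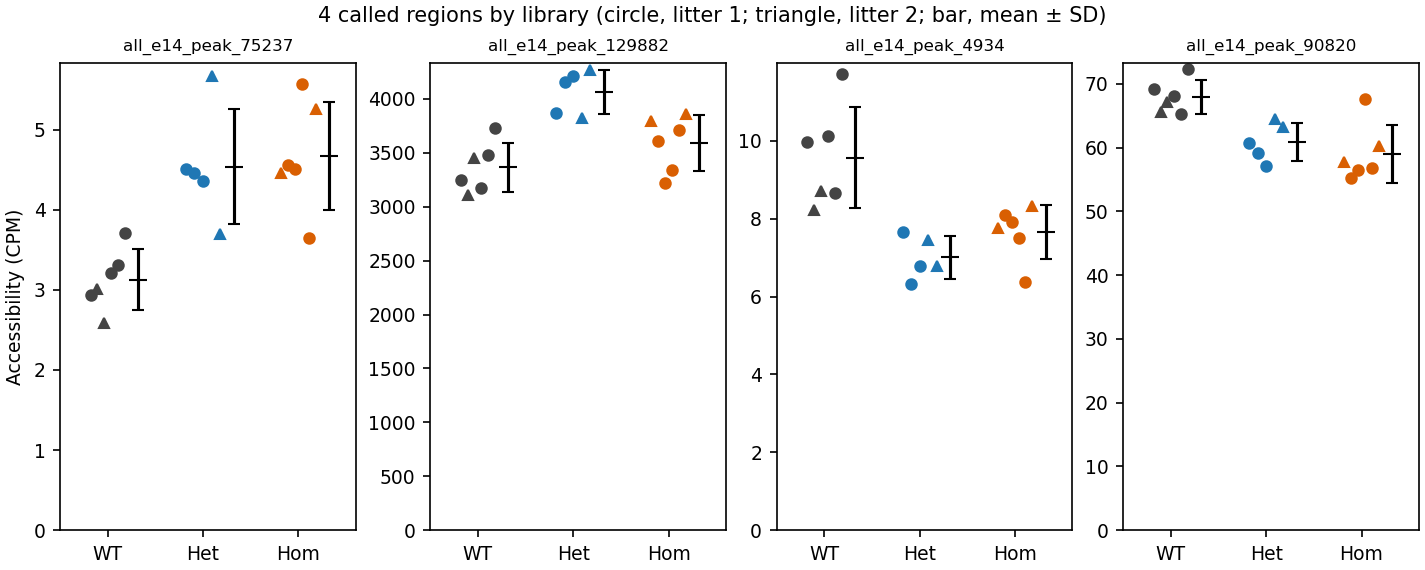
Accessibility (CPM, axes from 0) of the 4 named regions in each of the 17 libraries by genotype, circles for litter 1 and triangles for litter 2, with the mean ± SD of each genotype. Het and Hom lie together at all_e14_peak_75237 (means 4.54 and 4.67 CPM), while at all_e14_peak_129882 the 5 Het libraries lie above all 6 WT libraries and 4 of 6 Hom libraries lie within the WT range.

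The smallest p among falls belonged to a region with a mean of 11.3 CPM. WT libraries ran from 12.2 to 14.1 CPM and mutants from 9.22 to 11.2 CPM, so no mutant library reached the WT range. The log2 difference was -0.37 (SE 0.06, limma adjusted p = 0.0224), with -0.38 in Het and -0.35 in Hom. It was 1 of the 2 falls still called with the removed directions as covariates (limma adjusted p = 0.0466).

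All 11 mutant libraries lay on one side of all 6 WT libraries at 35 of the 96 called regions, 13 of the rises and 22 of the falls. Over all tested regions this was so at 213 (0.154%), of which 72 (0.0519%) had every mutant library higher and 141 (0.102%) every mutant library lower. The called regions were picked by the same difference, so nothing is read from their larger share.

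Het lay farther from WT than Hom at most called regions. Both are measured against the same WT libraries, so their values are given side by side only. At the 46 rises the median difference from WT was 0.53 log2 in Het and 0.44 log2 in Hom, and at the 50 falls it was -0.28 log2 in Het and -0.22 log2 in Hom. The Het mean lay farther from WT than the Hom mean at 35 of the 46 rises and 40 of the 50 falls. The same count over all tested regions was not made, so these are not read as particular to the called regions. Over all regions of the highest decile of level the median difference from WT was -0.08 log2 in Het and -0.03 log2 in Hom. In the lowest decile it was 0.05 and 0.03 log2, and decile 7 went the other way (-0.0004 and -0.002 log2). The direct Hom to Het difference had an unadjusted limma p under 0.05 at 19 of the 96, against 11.3% of all tested regions. Median levels at the falls were 22.3 CPM in WT, 17.7 CPM in Het and 19.1 CPM in Hom, and at the rises 3.24, 4.66 and 4.47 CPM.

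Taking the genotypes as 1 group narrowed the median error, but not that of every region. The median SE over tested regions was 0.12 log2 for the pooled mutants, against 0.14 log2 for Het and 0.13 log2 for Hom alone. At all_e14_peak_129882 the pooled SE was wider, 0.0379 log2 against 0.0363 log2 for Het and 0.0346 log2 for Hom. It was also wider at the other called rises above 100 CPM. In a fit with 3 genotype means, Het alone differed from WT at 1691 regions (1.22%), 555 higher (0.4%) and 1136 lower (0.819%), with 16.2% at an unadjusted limma p under 0.05. Hom alone differed at 0 regions (limma, 9.32% at an unadjusted p under 0.05), and the pooled group at the 96 above. When the spread between Het and Hom was kept out of the error, with 3 genotype means and Het and Hom weighted equally, the pooled comparison called 357 regions, 145 higher and 212 lower, including all 96. None of the fits with 3 genotype means, the direct Hom to Het one included, held the removed directions or litter, and no library was left out of them. Entering the directions took the pooled count from 96 to 9, so how far the counts of 1691 and 0 would hold was not tested.

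The litters gave a reading on libraries that had no part in choosing the regions. In litter 1 alone 503 regions (0.362%) had an unadjusted limma p under 0.001, 200 higher and 303 lower in mutants. In litter 2, with its own 2 WT and 4 mutant libraries, 145 of the 200 (72.5%) were higher too, against 55.6% of all regions higher in litter 1, and 252 of the 303 (83.2%) were lower too, against 58.4%. The differences shrank from a median of 0.59 to 0.17 log2 for the rises and from -0.26 to -0.09 log2 for the falls. The shares differed between bands of level. In the top decile 147 of 165 chosen falls (89.1%) were lower in litter 2, where 62.8% of all regions of that decile were, and in the lower 5 deciles 73 of 118 chosen rises (61.9%) were higher, where 51.6% of all were. In deciles 6 to 9 the shares were 90 of 110 falls (81.8%), against 53.4% of all, and 56 of 66 rises (84.8%), against 46.6%. The top decile held 16 chosen rises, all higher in litter 2, against 37.2% of all. Read the other way, 297 regions (0.214%) passed in litter 2 alone. Of its 226 rises 151 (66.8%) were higher in litter 1, against 54.4% of all regions higher in litter 2, and of its 71 falls 60 (84.5%) were lower, against 59.7%. The shares are descriptions of regions that are not independent, and the authors' adjustment was made on both litters together. Of the contrast between litters 64.6% lay in the removed directions, as did 16.9% of the term for a mutant effect that differs between litters, and values from before the adjustment were not analysed here.

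**Figure D4:**
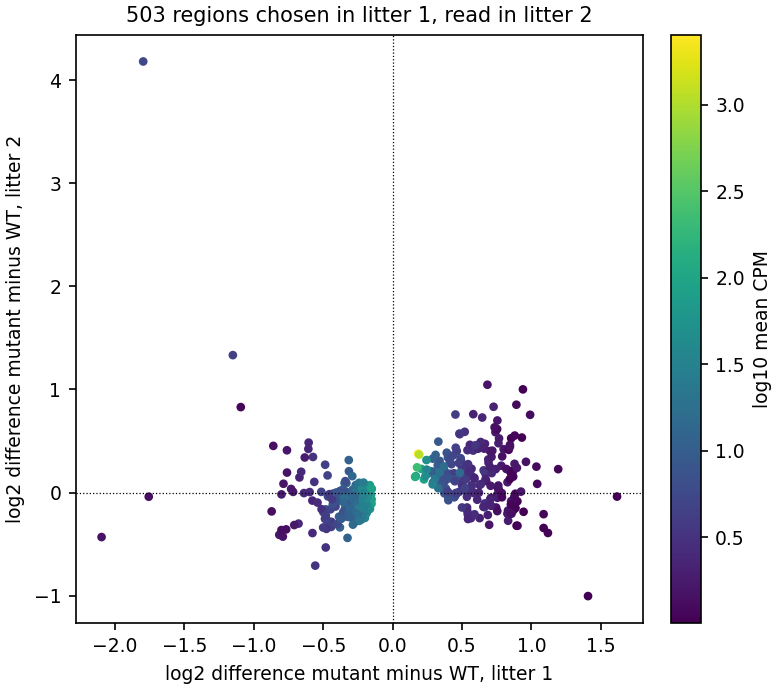
Log2 difference between mutants and WT in litter 2 against that in litter 1 for the 503 regions chosen in litter 1 at an unadjusted p under 0.001, coloured by mean accessibility (log10 CPM). Of the 200 regions higher in litter 1, 145 lie above 0 in litter 2, and of the 303 lower ones, 252 lie below 0.

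The mutant effect itself differed between litters at 3 regions (0.00216%), all with a higher difference in litter 2 (limma interaction, adjusted p under 0.05; 4.94% at an unadjusted p under 0.05). None of the 3 was called between mutants and WT, and with the removed directions in the fit 18 regions (0.013%) were called, all higher in litter 2. In the largest, all_e14_peak_235822, the 2 WT libraries of litter 2 measured 0.506 and 0.903 CPM and all 4 mutants of that litter more than 10 CPM, while in litter 1 the WT libraries, at 3.26 to 12.4 CPM, overlapped with the mutants at 0.251 to 5.07 CPM. It falls outside the rule for naming and was picked after its values were seen. Its number lies near those of the 9 regions that switched together, 235788 to 235808. Most of the 18 lie near them too, with numbers from 235733 to 235849, and are not counted as separate differences.

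Strong regions were relatively weaker, and weak regions relatively stronger, in mutants than in WT. Every library has the same upper quartile, 4.61 CPM, so the level at which the difference changes sign is tied to the scaling. Whether the strong regions, the weak ones or both moved cannot be told from these values. For each library the deviation of its log2 values from the mean of all libraries was fitted against region level, which gives a slope above 0 where strong regions are relatively stronger. The WT slopes were -0.001, 0.00913, 0.0144, 0.0152, 0.0158 and 0.0164 log2 per log2. Het slopes ran from -0.0231 to -0.00965 and Hom slopes from -0.00504 to 0.00875, so 5 of 6 WT libraries lay above all 11 mutants and WT replicate 13 lay within the Hom range. The mean was 0.0117 ± 0.00673 (SD, n = 6) in WT and -0.00636 ± 0.0101 (n = 11) in mutants, a difference of -0.018 (exact permutation p = 0.00186, adjusted 0.00558, two-sided, family of 3). It was -0.0207 in litter 1 alone (exact permutation adjusted p = 0.0273), and litter 2, with 2 WT and 4 mutant libraries, held too few for the test to pass the threshold.

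**Figure D5:**
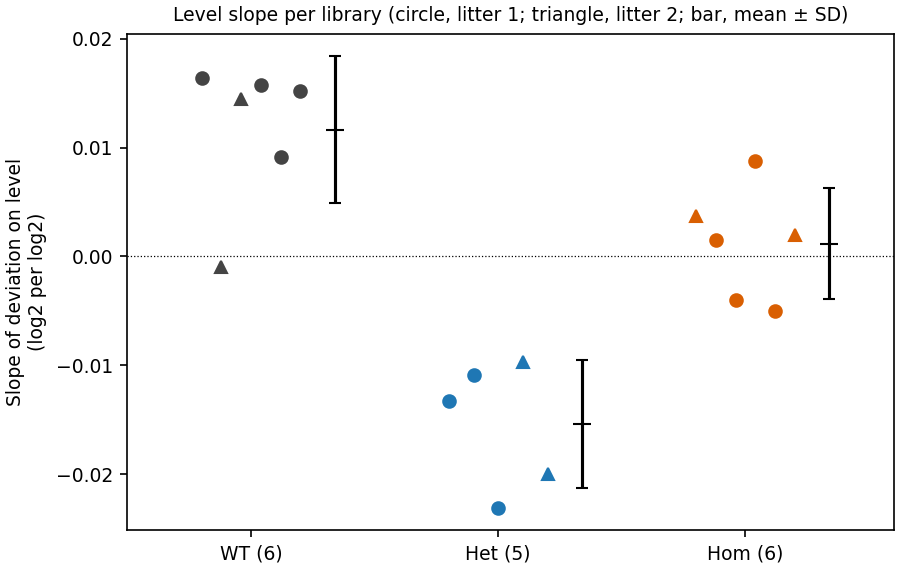
Slope of each library's deviation on region level (log2 per log2) by genotype, circles for litter 1 and triangles for litter 2, with the mean ± SD. WT libraries run from -0.001 to 0.0164, Hom from -0.00504 to 0.00875 and Het, at -0.0231 to -0.00965, lie below 0 throughout.

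The other library measures moved less. The top decile of regions held 47.9 ± 0.534% of the summed CPM in WT and 47.3 ± 0.551% in mutants (exact permutation p = 0.0464, adjusted 0.0464), with ranges of 46.9 to 48.3% and 46.3 to 48.2%. Its adjusted p went above 0.05 without any 1 of WT replicates 10, 25, 43 and 57, the 5 Het libraries, and Hom replicates 40 and 61 (exact permutation, up to 0.102). The median region level was 3.08 ± 0.0222 CPM in WT and 3.12 ± 0.0218 CPM in mutants (exact permutation p = 0.00768, adjusted 0.0115), but the 17 medians took only 4 values, and with a filter at 2 CPM the difference reversed to -0.0116 CPM (exact permutation adjusted p = 0.527). These 3 measures are computed from the same values and are not independent, and their tests do not count the variation within groups that the adjustment removed.

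The median difference between mutants and WT followed the slope, from 0.03 log2 in the lowest decile of level to -0.05 log2 in the highest, where 19.3% of 13876 regions had a higher mean in mutants. The split of the calls changed with it. After quantile normalization 26 regions were called higher and 6 lower, and 70 were higher and 10 lower once the trend of each library with level had been taken out, against 46 and 50 in the values as deposited. Of the 80 regions called without the trend, 46 were among the 96.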

How the data were processed

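ATAC-seq of E14.5 cortex was analysed from 1 table. The authors deposited log2 CPM per numbered region, adjusted for unwanted variation with RUVr as the file is titled. Per the submitters' processing notes the build was mm10 and the tools included HTSeq, STAR, Bowtie2 and Trimmomatic, whose roles and versions are unstated. How peaks were called, how many RUVr factors were used and whether reads were shifted were not given in the sources used here. Every library has an upper quartile of 4.61 CPM, so original depth is unknown and no counting interval is given. Libraries correlated at 0.957 to 0.983 within genotypes and 0 pairs were identical.

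The deposited log2 values of regions averaging 1 CPM or more entered limma 3.58.1 in R 4.3.3 (empirical Bayes with a trend), mutant against WT, at a Benjamini-Hochberg adjusted p under 0.05. The fit was tested on simulated data with noise drawn independently for each region and library. These data had no removed directions and no difference between Het and Hom, so that test does not bear on the stability of the count. The 3 directions with almost no variation (root mean square at most 0.0155 log2, against 0.265 or more in the others) were taken as those RUVr removed. They hold 0.0205% of the contrast between mutants and WT, and as covariates they bring the residual degrees of freedom from 15 to 12. For 3 values per library, group means were compared by exact permutation (two-sided). Named regions are, per direction, the called region of largest change at 4 CPM or more and the most accessible called region. Members, lists and tests were chosen with earlier results of these data known. Alternatives were other scalings, filters, pseudocounts, litters, covariates and left-out libraries.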

Additional observations from a re-analysis of the deposited data

Results flagged for a closer look

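The mutant effect differed between the litters at 3 regions in a test of that difference (limma interaction, adjusted p under 0.05). They fall outside the rule for named regions and were singled out after their values were seen. At all_e14_peak_235822 the difference between litters was 5.98 log2 (SE 0.76): the 2 WT libraries of litter 2 measured 0.506 and 0.903 CPM and its 4 mutants 10.03 to 17.4 CPM, while in litter 1 the WT libraries ran from 3.26 to 12.4 CPM and the mutants from 0.251 to 5.07 CPM. At all_e14_peak_235820 it was 1.64 log2 (SE 0.29): litter 2 measured 16.8 and 19.9 CPM in WT against 30.1 to 63.2 CPM in mutants, and litter 1 measured 25.4 to 41.9 CPM against 11.02 to 37.9 CPM. At all_e14_peak_20313 it was 1.41 log2 (SE 0.25), from 2.01 and 4.91 CPM in WT to 5.32 to 8.11 CPM in mutants of litter 2, and litter 1 measured 6.26 to 7.97 CPM in WT and 4.46 to 7.60 CPM in mutants. The region all_e14_peak_235822 was among the 20 most variable ones. With the first component of those 20 as a covariate 1 region was called for the difference between litters. The count was also 1 without WT replicate 10, 13, 43 or 57, Het replicate 49 or Hom replicate 6, and 26 without WT replicate 25. It was 5 or 6 without WT replicate 46, Het replicate 31 or Hom replicate 20, 40 or 54, and 9 or 10 without Het replicate 27 or 34.

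The median region level of Hom replicate 20 was 3.14 CPM, and the other 5 Hom libraries lay at 3.09 to 3.11 CPM. It was the only library with such a gap in 21 sets checked, and chance gives about 1 in 20 sets. The medians of all 17 libraries took only 4 values, so this is a step to the next of them and does not show a library apart.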

How the results depend on the processing

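No paired analysis was possible because the genotypes share no replicate numbers; litter was used instead. The count of 96 stayed within 1.5 times in 8 of 33 alternatives. It was 9 with the removed directions as covariates, 357 with 3 genotype means, 9 with litter as a block, 0 in litter 1 and 25 in litter 2, 32 after quantile normalization, 9 without a filter and 171 with a filter at 2 CPM. It was 2 with the mean of the 20 variable regions as a covariate. In alternatives chosen after seeing the data it was 1 with their first component and 8 (8 higher, 0 lower) with quantile normalization and the removed directions together. Leaving out 1 library gave 0 to 147. With 0.1 to 2 CPM added the count was 108 to 120. The 4 named regions kept their direction in every alternative except that all_e14_peak_129882 differed by 0 after quantile normalization, and they lost their call in 12 (all_e14_peak_75237) to 24 (all_e14_peak_90820) of 32. The litter difference, 3 regions, became 18 with the removed directions, 1 without a filter, 1 with the first component of the variable regions, and 1 to 26 with 1 library left out; where that library is a litter 2 WT, the lone one left is assumed to vary like the rest. The slope difference stayed past its threshold in 21 of 21 alternatives (-0.0204 to -0.0165 with 1 library left out). Of these, 17 left out 1 library, and the other 4 were no filter, a filter at 2 CPM, 0.5 CPM added and litter 1 alone. The slope was not tried with other scalings, with the removed directions or with Het or Hom alone against WT. The top decile share lost it at 2 CPM (-0.377 percentage points, exact permutation adjusted p = 0.225), in litter 1 (-0.817) and in 11 of 17 left-out libraries (-0.796 to -0.51). The median level lost it without a filter (0.0199 CPM) and in litter 1 (0.0317 CPM), and reversed at 2 CPM (-0.0116 CPM); it was 0.0345 to 0.0445 CPM with 1 library left out. The cause of these moves was not tested. The half-width of the 95% interval had a median of 0.24 log2 over tested regions, and what depth contributes to it is unknown.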
